A study of Mus musculus with 12 samples.

Results

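The genes described here are 10 markers of preadipocytes and mesenchymal progenitors, namely Pdgfra, Pdgfrb, Dlk1, Cd34, Thy1, Ly6a, Fap, Cd248, Zfp521 and Gata2. They were taken by gene symbol from the matrix of normalized read counts, where they are 10 of 48321 genes, and their levels were compared across the 4 groups of the study. All 10 passed the filter on low values, which asked for 10 or more normalized counts in 3 or more libraries and which 11998 genes passed.

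Every library came from wild-type brown preadipocytes of a newborn mouse, immortalized with SV40 large T antigen. The cells were transduced either with the empty lentiviral vector pLEX (called vector) or with pLEX carrying tSema4B, a Flag-tagged truncated Sema4B that stands for the soluble form released by the protease ADAM17. Both lines were differentiated towards mature adipocytes for 8 days with insulin and triiodothyronine, with isobutylmethylxanthine, rosiglitazone and dexamethasone in the first medium changes, and were then kept for 6 h in serum-free medium, either unstimulated or with 2 μM norepinephrine (NE). This gave vector unstimulated, vector NE, tSema4B unstimulated and tSema4B NE, with n = 3 libraries in each. One transduced line stood for each construct, so tSema4B against vector compares 2 lines. Per the labels, libraries of the same group are technical replicates, and where they share a culture the p-values measure only the spread between libraries.

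The libraries held between 2000780 and 5409583 reads on genes, and in each condition the tSema4B libraries were shallower than the vector libraries. Mitochondrially encoded genes took 6.91% to 7.90% of the reads in tSema4B libraries and 13.4% to 16.7% in vector libraries. Sema4b itself, read against the labels, was at 110800 to 124000 normalized counts in the vector unstimulated libraries and at 258300 to 316900 in the tSema4B unstimulated ones. After NE it was at 65470 to 81750 and at 208800 to 270700, so the groups did not overlap in either condition. The difference was 2.40-fold without stimulation and 3.15-fold after NE, as the vector libraries also held large numbers of reads on this gene. Per kb of exon, Sema4b lay at the 99.9th percentile of tested genes in both vector groups. The cause of this high level without the construct was not tested.

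Fat cells form from fibroblast-like progenitors that carry platelet-derived growth factor (PDGF) receptors and surface proteins such as CD34, Sca-1 (Ly6a) and Thy1. As these cells commit and fill with lipid, progenitor markers are turned down and the adipocyte programme led by PPARγ is turned up. Several markers also act in the process. Dlk1 (Pref-1) is a membrane protein related to the Notch ligands whose ectodomain, shed by ADAM17, holds back adipogenesis, while Zfp521 and Gata2 are nuclear factors that keep preadipocytes undifferentiated.

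Start-site sequences are shown for 3 markers, because Dlk1 and Cd34 fell together after NE in both lines whereas Pdgfra did not, as described further on. RefSeq promoter sequences (build GRCm38.p6) were at hand for 4 of the 10 markers. The run shown goes from 250 bases before the annotated start to 20 bases after it, 5′ to 3′ on the plus strand. Capitals mark matches, on either strand, to TGACG (the core of the cAMP response element), GATAA (bound by GATA factors), CCAAT or TATAAA, none of which overlap here.
Dlk1: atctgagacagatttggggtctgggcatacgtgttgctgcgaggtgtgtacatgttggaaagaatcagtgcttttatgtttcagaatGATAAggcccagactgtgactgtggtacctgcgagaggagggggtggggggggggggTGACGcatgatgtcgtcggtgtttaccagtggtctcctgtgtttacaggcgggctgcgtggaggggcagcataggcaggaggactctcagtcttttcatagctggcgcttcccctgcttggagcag
Cd34: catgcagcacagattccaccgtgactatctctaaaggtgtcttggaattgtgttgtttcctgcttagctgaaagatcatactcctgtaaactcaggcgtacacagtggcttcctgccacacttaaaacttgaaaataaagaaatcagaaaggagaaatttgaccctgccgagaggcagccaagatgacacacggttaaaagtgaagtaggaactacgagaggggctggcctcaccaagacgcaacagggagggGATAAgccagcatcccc
Pdgfra: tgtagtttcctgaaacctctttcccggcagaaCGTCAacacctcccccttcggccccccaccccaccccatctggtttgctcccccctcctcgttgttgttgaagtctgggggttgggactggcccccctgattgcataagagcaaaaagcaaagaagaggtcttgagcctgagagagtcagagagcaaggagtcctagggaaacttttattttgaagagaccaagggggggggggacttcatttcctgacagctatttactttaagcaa
These runs lie at chr12:109452573-109452842, chr1:194938571-194938840 and chr5:75152001-75152270. They are placed by the start of the promoter table. For Pdgfra the whole run lies before the gene start used for the coordinates below, chr5:75152292. The Dlk1 run held TGACG, whose first base lay 106 bases before the start, and GATAA, whose first base lay 163 bases before it. For Cd34 the single match was a GATAA whose first base lay 3 bases after the start base. In Pdgfra the match was CGTCA, the reverse complement of TGACG, 218 bases before the start. Over the 32851 promoters of the same table, in windows that reach 50 bases past the start, 20.8% held TGACG and 25.4% held GATAA, so these matches are frequent in promoters at large. None of these 3 promoters held the full palindrome TGACGTCA, which 1.79% of all promoters hold.

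The first question was whether cells that express tSema4B keep higher levels of progenitor markers than vector cells after the same differentiation. In unstimulated cells 6 of the 10 markers were higher in tSema4B cells, namely both PDGF receptors, Dlk1, Cd34, Fap and Cd248, and none was lower (limma on log2 values, Benjamini-Hochberg adjusted p of 0.05 or less, called changed below). Across all tested genes 5.64% were higher and 7.39% lower by the same rule. After NE 8 of the 10 were higher, with Ly6a and Zfp521 added, against 9.79% of all genes higher and 11.2% lower. The median log2 fold change of the 10 was 0.52 in unstimulated cells, where the median of all genes was -0.003, and 0.83 after NE, where it was -0.01. Changes of at least 1 on the log2 scale were found for Fap alone in unstimulated cells (3.82% of all genes passed both thresholds) and for Fap, Cd248 and Zfp521 after NE (5.76% of all genes), although Zfp521 was at 0.99 with a pseudocount of 10. Single libraries moved the count after NE, since without vector NE replicate 1 Pdgfra (1.01) and Pdgfrb (1.00) also passed, Pdgfra passed without vector NE replicate 3 (1.01), Pdgfrb passed without tSema4B NE replicate 1 (1.06) or 2 (1.01), and Cd248 missed it without tSema4B NE replicate 3 (0.97). The 3 tSema4B libraries all lay above the 3 vector libraries for 6 markers in unstimulated cells and for 9 after NE. Over all genes the groups did not overlap, in either direction, for 29.4% and 37.7%.

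The same cells differed in adipocyte genes. Of 20 markers of mature adipocytes 19 fell in tSema4B cells in both conditions. The remaining gene, Cidea, passed the filter on low values only through vector libraries, so its test is not used. Over all genes 7.39% were lower without stimulation and 11.2% after NE. With Cidea included, the 20 had a median log2 fold change of -2.42 in unstimulated cells and -1.58 after NE. The summed level of these 20 was 9872 to 12600 in tSema4B unstimulated libraries against 49080 to 56600 in vector unstimulated ones. Since these are bulk libraries, a larger number of undifferentiated cells and more marker RNA per cell cannot be told apart for any result on the 10 markers. The part of the mitochondrial read share in the same results was not tested. Every call between the lines stood under the rescalings of the libraries, but none of these was made to leave out the mitochondrial genes.

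**Figure D1:**
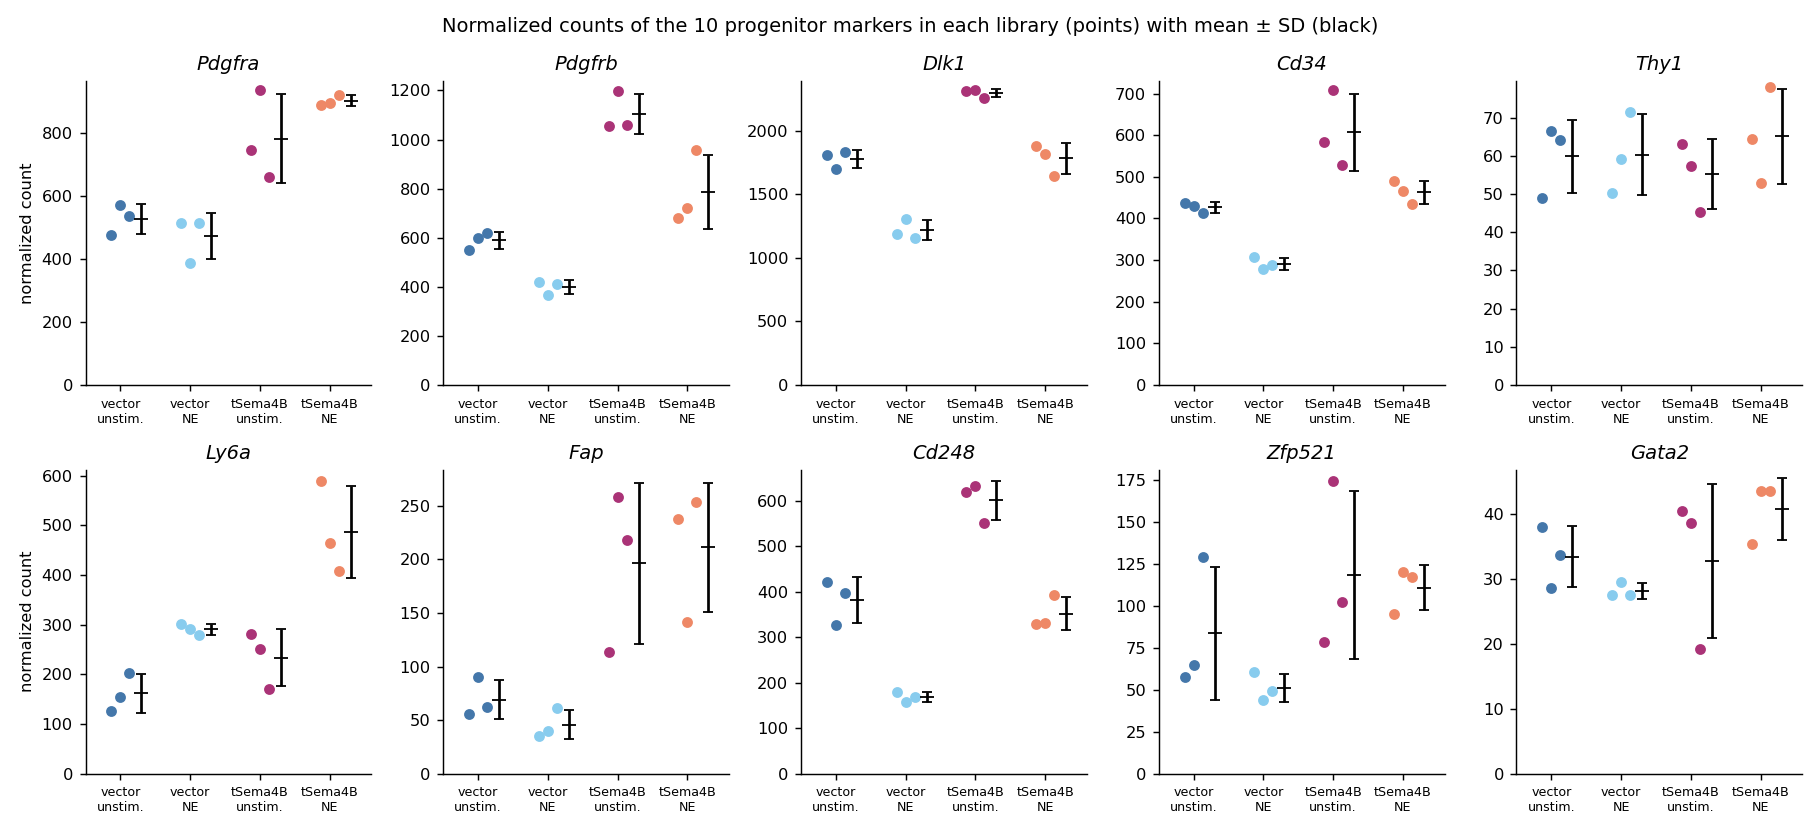
Normalized counts (y axis, each panel from 0) of the 10 markers in each of the 12 libraries (points) with the mean ± SD of each group in black, n = 3. The tSema4B points lie above the vector points of the same condition for both PDGF receptors, Dlk1, Cd34, Fap and Cd248, whereas the groups of Thy1 overlap throughout.

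The PDGF receptors are the tyrosine kinases through which PDGF keeps mesenchymal progenitors growing, and both were higher in tSema4B cells. Pdgfra (chr5:75152292-75198215, plus strand) was at 476, 571 and 536 normalized counts in the vector unstimulated libraries and at 746, 939 and 663 in the tSema4B unstimulated libraries. After NE the values were 515, 389 and 517 in vector cells and 891, 896 and 924 in tSema4B cells. Every tSema4B library was above every vector library of the same condition. On the log2 scale the difference was 0.56 ± 0.13 (SE, limma; adjusted p = 0.00406) without stimulation and 0.94 ± 0.13 (adjusted p = 1.14e-05) after NE. Its exons overlap those of 2 predicted genes on the opposite strand, and the library kit does not mark strand, so reads of these genes cannot be separated from those of Pdgfra.

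Pdgfrb (chr18:61045150-61085061, plus strand) was at 550, 599 and 619 normalized counts in vector unstimulated and at 1055, 1197 and 1060 in tSema4B unstimulated libraries. With NE it was at 421, 366 and 411 in vector cells and at 679, 722 and 959 in tSema4B cells. The lines did not overlap in either condition, and the log2 fold changes were nearly equal, at 0.91 ± 0.12 (adjusted p = 7.8e-06) and 0.96 ± 0.12 (adjusted p = 3.17e-06). Pdgfrb was lower after NE in both lines, while Pdgfra was not, so the ratio of Pdgfra to Pdgfrb counts moved. That ratio was 0.866 to 0.954 in vector unstimulated and 1.06 to 1.26 in vector NE libraries. In tSema4B cells it was 0.625 to 0.784 without stimulation and 0.963 to 1.31 with NE. The ratio was thus higher after NE in each line without overlap, and it was chosen after the values were seen, so no test is given.

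Among the ligands of these receptors, Pdgfa and Pdgfd were low, while Pdgfc had group means of 115 to 168 normalized counts. Of 4 PDGF genes 3 were tested, so counts of calls among them are a description only. Over all genes 5.64% were higher and 7.39% lower without stimulation, and 9.79% were higher and 11.2% lower after NE. None of the 3 changed in unstimulated cells, and only Pdgfd was higher in tSema4B cells after NE. It had 6.67 ± 2.00 (SD, n = 3) normalized counts in vector and 27.3 ± 1.44 in tSema4B cells (log2 fold change 1.92, adjusted p = 0.00936). Without stimulation Pdgfd had 0.49 ± 0.51 (adjusted p = 0.593) and Pdgfa 0.10 ± 0.46 (adjusted p = 0.92). Pdgfc, the highest of the 3 by count, had a log2 fold change of 0.29 ± 0.21 after NE (adjusted p = 0.367).

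Dlk1 (chr12:109452823-109463336, plus strand) was the most abundant of the 10 by normalized count. It was at 1806, 1701 and 1836 in vector unstimulated libraries and at 2310, 2323 and 2260 in tSema4B unstimulated libraries. The NE libraries held 1190, 1305 and 1153 in vector cells and 1883, 1816 and 1646 in tSema4B cells. The differences between the lines were small but well outside the spread, at 0.37 ± 0.08 on the log2 scale (adjusted p = 0.00209) in unstimulated cells and 0.55 ± 0.08 (adjusted p = 2e-05) after NE. The tSema4B NE libraries overlapped the vector unstimulated ones.

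Around Dlk1, a list of 16 other genes of the Dlk1 locus and the Notch pathway held 9 that were tested. Over all genes 5.64% were higher and 7.39% lower without stimulation, and 9.79% were higher and 11.2% lower after NE. Without stimulation 4 were higher in tSema4B cells and none lower, among them Hey1, a transcriptional target of Notch (85.1 ± 13.7 against 223 ± 52.3 normalized counts, log2 fold change 1.36, adjusted p = 0.000111), and Meg3, the non-coding RNA of the imprinted Dlk1 locus (64.4 ± 18.9 against 131 ± 48.0, log2 fold change 1.00, adjusted p = 0.026). After NE 5 were higher, such as Notch3, a Notch receptor (log2 fold change 1.14, adjusted p = 0.00401), and 1 was lower, the ligand gene Jag1 (-1.81, adjusted p = 0.000172). Adam17, which encodes the protease that sheds both Dlk1 and Sema4B, was at 621 ± 82.2 in vector and 623 ± 78.9 in tSema4B unstimulated libraries, a difference of 0.00 ± 0.12 on the log2 scale (adjusted p = 0.984).

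Among the surface proteins, Cd34 encodes a sialomucin of progenitor and endothelial cells (chr1:194938819-194961279, plus strand). It was at 438, 431 and 413 normalized counts in vector unstimulated libraries and at 584, 709 and 529 in tSema4B unstimulated ones. After NE the values were 308, 279 and 288 in vector and 489, 465 and 435 in tSema4B cells. Neither pair of groups overlapped, and the log2 fold change was 0.50 ± 0.11 (adjusted p = 0.00479) without stimulation and 0.66 ± 0.11 (adjusted p = 0.000228) with NE. Part of its exons is shared with a predicted gene on the opposite strand.

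Cd248 (chr19:5068078-5070682, plus strand) encodes endosialin, a transmembrane glycoprotein of stromal fibroblasts and pericytes. Its counts were 422, 326 and 398 in vector unstimulated and 619, 633 and 552 in tSema4B unstimulated libraries. NE brought 179, 157 and 168 in vector cells and 330, 331 and 394 in tSema4B cells. The lines were separate in both conditions, with log2 fold changes of 0.66 ± 0.13 (adjusted p = 0.000852) and 1.06 ± 0.13 (adjusted p = 2.63e-06). The second of these is close to the threshold of 1, and without tSema4B NE replicate 3 it was 0.98.

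Fap, which encodes fibroblast activation protein, a cell-surface serine protease (chr2:62500943-62574075, minus strand), showed the widest gap between the lines among the 10. It was at 55.4, 90.0 and 62.1 normalized counts in vector unstimulated libraries and at 113, 258 and 218 in tSema4B unstimulated ones. In the NE libraries it was at 35.6, 40.3 and 61.5 in vector cells and at 238, 142 and 254 in tSema4B cells. The tSema4B libraries varied widely among themselves, with an SD of 74.9 without stimulation and 60.5 after NE, yet the lowest of them exceeded the highest vector library in each condition. Its log2 fold change was 1.44 ± 0.29 (adjusted p = 0.00135) in unstimulated cells and 2.18 ± 0.29 (adjusted p = 1.04e-05), or 4.52-fold, after NE.

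Ly6a (chr15:74994877-74998031, minus strand) encodes Sca-1, a GPI-anchored protein used to sort adipocyte progenitors. It was at 127, 155 and 204 normalized counts in vector unstimulated libraries and at 281, 251 and 170 in tSema4B unstimulated libraries, so these groups overlapped. After NE it was at 302, 292 and 280 in vector cells and at 589, 464 and 408 in tSema4B cells, which did not overlap. The log2 fold change between the lines was 0.52 ± 0.18 without stimulation (adjusted p = 0.0631) and 0.72 ± 0.18 after NE (adjusted p = 0.00678). The unstimulated value lay at the edge of the threshold. DESeq2 on whole reads gave an adjusted p of 0.0447, and the range over the alternatives was 0.00872 to 0.287. Ly6a belongs to a family of similar genes in one cluster, and how reads that map to several places were counted is not given in the sources used here. Of 7 relatives 2 were tested, so calls among them are a description only. Ly6e was higher in tSema4B cells in both conditions (log2 fold changes 0.70 and 1.01, adjusted p = 0.00243 and 3.87e-05). Ly6c1 was not called between the lines, with 0.02 without stimulation (adjusted p = 0.972) and 0.44 after NE (adjusted p = 0.261). Over all genes 5.64% were higher without stimulation and 9.79% after NE.

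Thy1 (chr9:44043384-44048579, plus strand), the GPI-anchored CD90 of fibroblasts and mesenchymal cells, passed the test in none of the comparisons. It was at 48.9, 66.4 and 64.3 normalized counts in vector unstimulated and at 63.2, 57.2 and 45.2 in tSema4B unstimulated libraries. With NE it was at 50.4, 59.3 and 71.4 in vector cells and at 64.3, 53.0 and 78.0 in tSema4B cells. All 4 groups overlapped, and these counts rest on 33 to 109 reads per library. The 95% interval of the log2 fold change between the lines ran from -0.64 to 0.40 without stimulation and from -0.42 to 0.62 with NE, so a change of the size seen for Pdgfrb or Fap lies outside both, whereas one of the size seen for Dlk1 in unstimulated cells does not.

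Both nuclear factors had low counts. Zfp521 (chr18:13687013-13972787, minus strand), a zinc-finger protein that holds back the adipogenic factors Ebf1 and Zfp423, was at 57.5, 64.7 and 130 normalized counts in vector unstimulated libraries and at 78.7, 175 and 103 in tSema4B unstimulated ones. After NE it was at 60.5, 43.9 and 49.1 in vector and at 95.4, 120 and 118 in tSema4B cells. The unstimulated groups overlapped, each with 1 library far above the other 2, and the log2 fold change of 0.51 ± 0.29 did not pass the test (adjusted p = 0.284). It was 0.87 without vector unstimulated replicate 3 and 0.19 without tSema4B unstimulated replicate 2, and passed the test in neither case. The NE groups were separate, with 1.11 ± 0.29 (adjusted p = 0.00856).

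Gata2 (chr6:88193891-88207032, plus strand), a GATA factor of preadipocytes, was at 38.0, 28.6 and 33.8 normalized counts in vector unstimulated and at 40.5, 38.7 and 19.2 in tSema4B unstimulated libraries. NE libraries held 27.6, 29.6 and 27.5 in vector cells and 35.4, 43.6 and 43.6 in tSema4B cells. Although the NE groups did not overlap, the log2 fold change of 0.51 ± 0.33 did not pass the test (adjusted p = 0.29), and its 95% interval was -0.16 to 1.19. With 14 to 50 reads per library, Gata2 had the fewest reads of the 10, and small changes were not detectable at this depth.

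**Figure D2:**
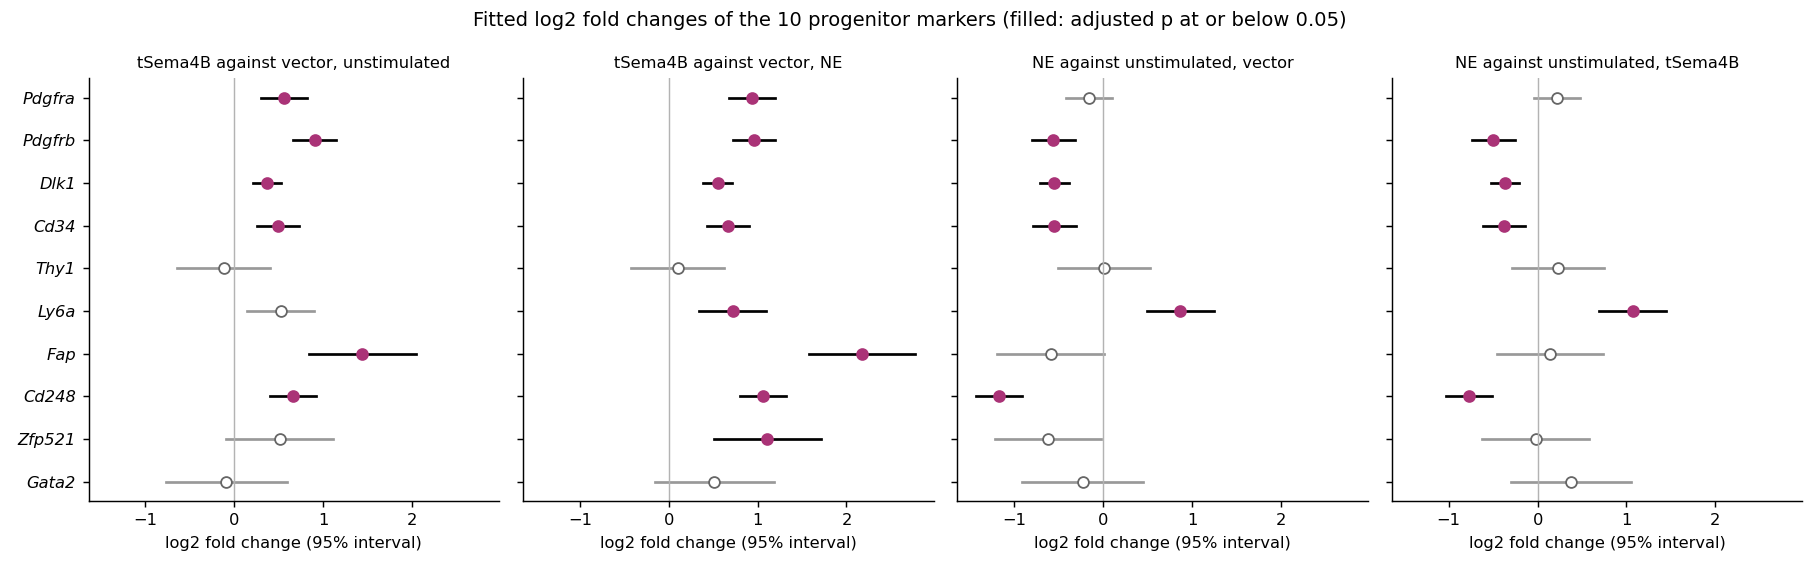
Fitted log2 fold changes (x axis) with 95% intervals (lines) of the 10 markers (rows) in the 4 comparisons of 2 groups, filled where the adjusted p was 0.05 or less. Between the lines 6 and then 8 points are filled, all to the right of 0, whereas for NE the points of Cd248, Pdgfrb, Dlk1 and Cd34 are to the left and that of Ly6a is to the right.

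The next question was whether NE, the transmitter that activates brown fat, moved the same markers within a line. In vector cells 5 markers changed after 6 h of NE. Ly6a rose (against 6.82% of all genes that rose), while Cd248, Pdgfrb, Dlk1 and Cd34 fell (against 4.78% that fell). In tSema4B cells the same 5 genes passed the test in the same directions, where 3.68% of all genes rose and 2.58% fell. The groups did not overlap for 5 markers in each line, the share over all genes being 33.3% in vector and 20.7% in tSema4B cells. The remaining 5, Pdgfra, Thy1, Fap, Zfp521 and Gata2, did not pass in either line. The vector comparison shares its vector unstimulated and vector NE libraries with the comparisons between the lines, and likewise for tSema4B, so these results are not independent of those above.

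Ly6a was the only marker that rose. It went up by 0.87 ± 0.18 on the log2 scale in vector cells (adjusted p = 0.00316) and by 1.07 ± 0.18 in tSema4B cells (adjusted p = 0.000657), and in each line the lowest NE library lay above the highest unstimulated one. Its relative Ly6c1 also rose in both lines, by 0.81 (adjusted p = 0.0482) and 1.23 (adjusted p = 0.00539), so reads shared between the genes cannot be set aside here. Cd248 was the marker that dropped furthest, and it fell by 1.17 ± 0.13 in vector cells (adjusted p = 1.68e-06) and by 0.77 ± 0.13 in tSema4B cells (adjusted p = 0.000392). Cd248 in vector cells and Ly6a in tSema4B cells were the only markers past both thresholds, which 2.63% and 2.07% of all genes passed. Without tSema4B unstimulated replicate 3 or tSema4B NE replicate 1, the Ly6a value in tSema4B cells was 0.86 or 0.93, and without vector unstimulated replicate 3 the value in vector cells was 1.05.

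Dlk1 fell by 0.55 ± 0.08 in vector cells (adjusted p = 4.81e-05) and by 0.37 ± 0.08 in tSema4B cells (adjusted p = 0.00435), and Pdgfrb fell by 0.56 ± 0.12 (adjusted p = 0.00272) and 0.50 ± 0.12 (adjusted p = 0.00926). For Cd34 the drop was 0.55 ± 0.11 in vector cells (adjusted p = 0.00288). In tSema4B cells Cd34 fell by 0.38 ± 0.11, which passed the test only narrowly (adjusted p = 0.0496) and passed it in 6 of 17 alternatives. The count of 5 markers in tSema4B cells was 3 without tSema4B NE replicate 1 and also 3 without replicate 2, as both Pdgfrb and Cd34 then missed the threshold. Fap and Zfp521 in vector cells had log2 fold changes of -0.59 ± 0.29 (adjusted p = 0.216) and -0.62 ± 0.29 (adjusted p = 0.194, and -0.26 without vector unstimulated replicate 3). Pdgfra had -0.16 ± 0.13 (adjusted p = 0.474) in vector and 0.22 ± 0.13 (adjusted p = 0.344) in tSema4B cells. With each library left out, Pdgfra ran from -0.236 to -0.029 in vector and from 0.11 to 0.361 in tSema4B cells. Fap in vector cells ran from -0.82 to -0.388. None of these values passed the test.

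Whether NE acted differently in the 2 lines was tested by the interaction. It passed for 0 of the 10 markers (limma; 0.025% of all genes passed, or 3 of 11998), and edgeR and DESeq2 also called 0 of the 10. Before adjustment 2 markers passed 0.05, where 10.2% of all genes did. They were Cd248, with an interaction of 0.40 ± 0.18 on the log2 scale (limma adjusted p = 0.432), and Pdgfra, with 0.39 ± 0.18 (limma adjusted p = 0.463). The fitted interaction was above 0 for all 10, with a median of 0.30 against 0.01 for all genes. The calls between the lines at rest and after NE, 6 and 8 of the 10, are therefore not shown to differ.

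**Figure D3:**
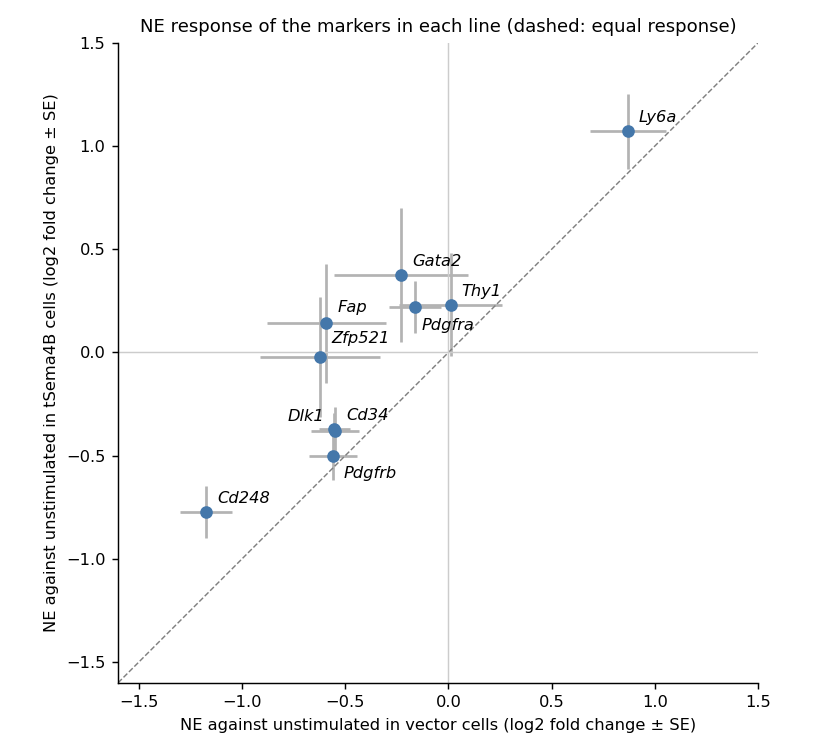
Log2 fold change of NE against unstimulated in vector cells (x axis) and in tSema4B cells (y axis) for the 10 markers, with SE bars and a dashed line of equal response. All points lie above the dashed line, Ly6a at the upper right and Cd248 at the lower left, and no marker passed the test of the difference.

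To compare levels between genes, normalized counts were divided by exon length (GENCODE vM21, GRCm38). On that scale Dlk1 was highest of the 10 in both unstimulated groups, at 315 normalized counts per kb in vector unstimulated and 406 in tSema4B unstimulated libraries, and it lay at the 96.3rd and 97.5th percentile of 11637 tested genes with a length. In vector unstimulated cells the order after Dlk1 was Cd248 (147), Ly6a (134), Pdgfrb (108), Cd34 (58.6), Pdgfra (52.6), Thy1 (16.3 to 22.2 over its libraries), Fap (12.2), Zfp521 (11.9) and Gata2 (6.20). The ranges of the 3 libraries overlapped between Cd248 and Ly6a, between Ly6a and Pdgfrb, between Fap and Zfp521 and, narrowly, between Cd34 and Pdgfra, so those neighbours do not differ beyond their spread. In vector NE cells Ly6a stood at 242 and Dlk1 at 215, their ranges apart, and in tSema4B NE cells Ly6a reached 404, with a range of 339 to 489, and lay above Dlk1 at 315 (291 to 333). Fap rose in the order among tSema4B cells, to 34.7 without stimulation and 37.3 with NE, from 12.2 and 8.09 in vector cells. Gata2 stayed lowest, between 5.23 and 7.57 per kb and between the 16.5th and 23.0th percentile.

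**Figure D4:**
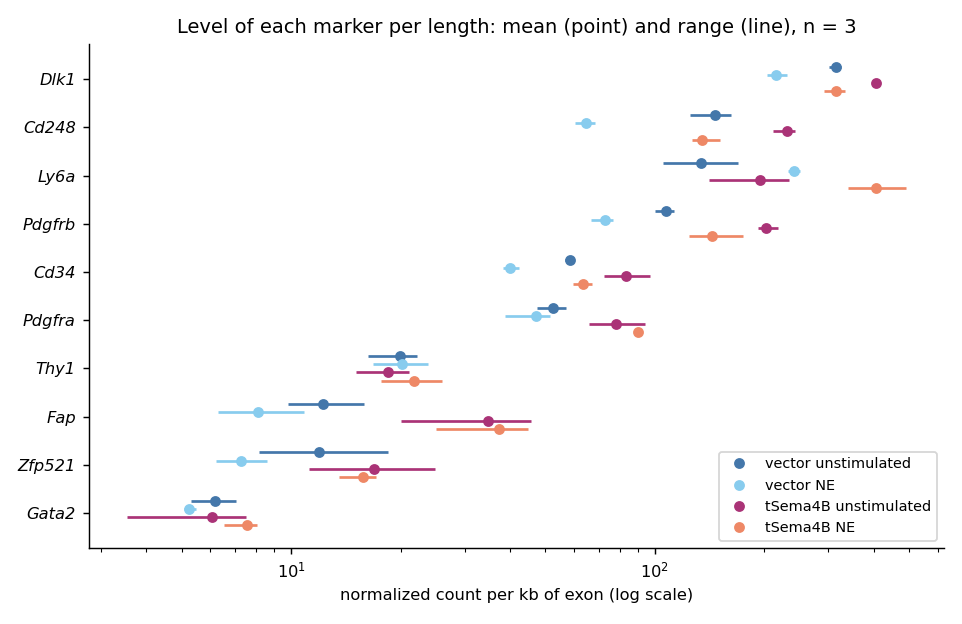
Normalized count per kb of exon (x axis, log scale) of each marker in the 4 groups, as the mean (point) and the range (line) of 3 libraries. Dlk1 is at the top and Gata2 at the bottom, and the tSema4B points of Fap lie to the right of its vector points.

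Across the 12 libraries, the tested gene whose log2 level was most like each marker was named by Pearson's r, as a description only, since the libraries fall into 4 groups and share their lines and treatment. Pdgfrb was most like Bgn, a matrix proteoglycan (r = 0.971), and Cd248 like Col6a1, a collagen chain (r = 0.980). Cd34 was most like Vcam1, an adhesion molecule (r = 0.982), and Dlk1 like Igf1, a growth factor (r = 0.981). Pdgfra was most like Sec31a (r = 0.969), Ly6a like Hivep3 (r = 0.973), Fap like Grb14 (r = 0.961), Gata2 like Zbtb4 (r = 0.940), Zfp521 like Pisd-ps1 (r = 0.915) and Thy1 like Gm6223 (r = 0.906). Among the 10 themselves, Dlk1, Cd34 and Cd248 followed each other most closely (r = 0.946 to 0.961), Pdgfra followed Fap (r = 0.903), and Ly6a and Cd248 had the lowest r (-0.233).

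Other genes of the progenitor state were read from lists written for this tissue. The lists were written with earlier results of these data known, so their counts are a description. Of 33 further progenitor and stromal markers 23 were tested, and 9 were higher in tSema4B cells without stimulation, with a list median of 0.25. Over all genes 5.64% were higher and 7.39% lower in this comparison. Dcn, the matrix proteoglycan decorin, was at 773 ± 71.0 normalized counts in vector and 1547 ± 97.4 in tSema4B unstimulated libraries (log2 fold change 1.00, adjusted p = 2.73e-07). Itgb1, the integrin β1 chain, went from 2562 ± 97.4 to 3583 ± 404 (0.48, adjusted p = 0.000207). None was lower apart from Eng, the TGFβ co-receptor endoglin, which was at 19.8 ± 7.65 in vector and 3.47 ± 1.70 in tSema4B unstimulated libraries and whose test is not used, as 1 of 6 tSema4B libraries reached the filter value. After NE 9 were higher, Dcn (1.02, adjusted p = 2.21e-07) and Itgb1 (0.42, adjusted p = 0.000585) among them, and 1 was lower, the adhesion molecule Alcam (-0.55, adjusted p = 0.0171). The shares over all genes after NE were 9.79% higher and 11.2% lower. The list median after NE was 0.11, against 0.83 for the 10 markers.

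Of 19 regulators that hold back adipogenesis 17 were tested. For this list and the next, 5.64% of all genes were higher and 7.39% lower without stimulation. After NE the shares were 9.79% higher and 11.2% lower. Counts of 1 to 3 genes in these lists are a description only. Nr2f2, the nuclear receptor COUP-TFII, was higher in unstimulated tSema4B cells (log2 fold change 0.85, adjusted p = 0.000334) as part of 3 that were higher, and Trp53inp1 was the 1 that was lower (-0.94, adjusted p = 3.04e-05). After NE 3 were higher and 0 lower, with Wnt6 left out because it passed the filter only through tSema4B libraries. Among the 3 were Wnt5a, a secreted Wnt (1.14, adjusted p = 0.00135), and Sox9, a transcription factor of mesenchymal progenitors (0.76, adjusted p = 0.00458). Of 14 genes of committed preadipocytes and early adipogenesis 13 were tested, with 1 higher and 3 lower without stimulation and 0 higher and 3 lower after NE. The factors Ebf2, which marks brown preadipocytes, and Klf15 fell in both conditions. Ebf2 had log2 fold changes of -2.87 (adjusted p = 6.56e-05) and -2.49 (adjusted p = 0.000267), and Klf15 had -1.75 (adjusted p = 0.000506) and -1.40 (adjusted p = 0.00303). Among mature adipocyte genes, the fatty acid transporter Cd36 was at 8943 ± 1451 in vector and 1564 ± 108 in tSema4B unstimulated libraries (log2 fold change -2.50, adjusted p = 1.19e-13), Lpl, the lipoprotein lipase, had -1.92 (adjusted p = 1.56e-13), and the fatty acid binding protein Fabp4 had -2.88 after NE (adjusted p = 7.19e-13).

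The response to NE within each line was counted for the same lists, where 6.82% of all genes rose and 4.78% fell in vector cells, and 3.68% rose and 2.58% fell in tSema4B cells. With lists this short, counts of 1 to 3 genes are read as a description only. Of the 23 further progenitor markers 1 rose and 2 fell in vector cells, and 1 rose and 3 fell in tSema4B cells. Of the 17 regulators 0 rose and 3 fell in vector cells, and 0 rose and 2 fell in tSema4B cells. Of the 9 genes of the Dlk1 locus and the Notch pathway none was called in vector cells and 2 fell in tSema4B cells, and of the 3 PDGF genes none was called in either line. Of the 13 genes of committed preadipocytes and adipogenesis 2 rose and 1 fell in vector cells, and 1 rose and 1 fell in tSema4B cells. Mature adipocyte genes moved in both directions in vector cells, where 3 rose and 3 fell, while 6 rose and 0 fell in tSema4B cells. These counts leave out Zfp467 in tSema4B cells and Ucp1 in both lines, which passed the filter only through the condition where they were high.

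Some of the 10 also mark other cells, so the markers of those cells were read in every library. Of 8 macrophage and blood cell markers 3, Ptprc, Adgre1 and Mrc1, were at 0 reads in all 12 libraries, and the summed level of the list was 13.1 to 21.7 normalized counts in vector unstimulated, 17.8 to 29.4 in tSema4B unstimulated, 41.0 to 58.3 in vector NE and 31.1 to 52.1 in tSema4B NE libraries. The 2 tested, Cd14 and Csf1r, were not called between the lines. Csf1r, the receptor of a macrophage growth factor, averaged 1.37 normalized counts in vector unstimulated and 11.5 in vector NE libraries, and 1.31 and 15.8 in the same groups of tSema4B cells. It passed the filter on low values only through the NE libraries, so its test of NE is not used. After NE Cd14 rose in vector cells (log2 fold change 1.29, adjusted p = 0.0464) but was not called in tSema4B cells (0.13, adjusted p = 0.904). The part of these genes in the rise of Ly6a after NE was not tested. Of 8 endothelial markers, which matter for Cd34, Kdr, Cldn5 and Esam were at 0 reads in all libraries and Cdh5 had at most 1. Their sum was 4.34 to 12.0 in vector unstimulated, 13.1 to 23.3 in tSema4B unstimulated, 5.24 to 14.8 in vector NE and 12.9 to 18.5 in tSema4B NE libraries, with Pecam1 the highest gene of the list in every group (log2 fold change 0.93, adjusted p = 0.282 without stimulation). Cd34 itself was at 279 normalized counts or more in every library.

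Mural cells share Pdgfrb and Cd248. Of 10 mural markers 6 were tested, 0 changed between the lines in unstimulated cells and 1, Tagln, was lower in tSema4B cells after NE (-0.80, adjusted p = 0.0068). Over all genes 11.2% were lower in tSema4B than in vector cells after NE. For NE against unstimulated, 4.78% of all genes fell in vector cells and 2.58% in tSema4B cells. NE itself lowered Acta2, the smooth muscle actin, in vector cells (-0.55, adjusted p = 0.0362) and in tSema4B cells (-0.75, adjusted p = 0.00785), and Tagln in tSema4B cells (-1.24, adjusted p = 0.000422), where in vector cells Tagln had -0.41 (adjusted p = 0.225). The part of these genes in the values of Pdgfrb and Cd248 after NE was not tested. The 10 mural markers summed to 1009 to 1457 in vector unstimulated and 1320 to 1482 in tSema4B unstimulated libraries, and 829 to 1078 in vector NE and 692 to 1000 in tSema4B NE libraries, mostly from Acta2, which had a log2 fold change of 0.17 between the lines without stimulation (adjusted p = 0.577). Cnn1, another contractile gene, had 1.35 after NE (adjusted p = 0.145). Rgs5, a defining pericyte gene, was at 19.1 ± 11.0 in vector and 7.58 ± 6.59 in tSema4B unstimulated libraries (log2 fold change -1.70, adjusted p = 0.19). After NE its fitted direction was the opposite, with 7.80 ± 6.73 in vector and 14.2 ± 3.7 in tSema4B libraries (1.04, adjusted p = 0.404). Of 6 muscle markers 5 were at 0 reads in all libraries, and none was tested.

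**Figure D5:**
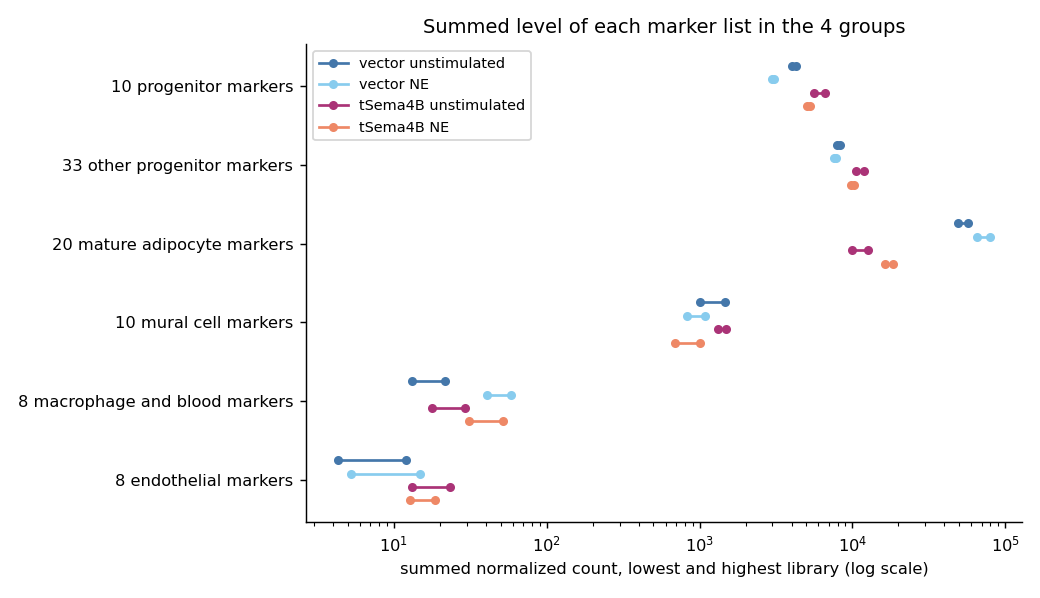
Summed normalized count (x axis, log scale) of the 10 markers and of 5 other lists in the 4 groups, each drawn from the lowest to the highest of 3 libraries. The 10 markers sum to 4018 to 4294 in vector unstimulated and 5617 to 6580 in tSema4B unstimulated libraries, while the mature adipocyte list lies lower in tSema4B than in vector cells.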

How the data were processed

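RNAseq signal was analysed in 12 libraries in 4 groups, each assigned from its label. Full-length cDNA (SMART-Seq2) was made into Nextera libraries and read single-end. After a screen for foreign reads, the authors aligned with STAR 2.7.9a (mm10, GRCm38.p4), counted with htseq-count and deposited read counts divided by DESeq2 size factors, so the deposited signal is a normalized count per gene. The annotation, strand setting and treatment of reads with several mapping places are not given in the sources used here. Non-zero values were whole multiples of 1 read (100% to within 0.01), which gave back the reads, between 2000780 and 5409583 per library, which limits precision for low genes.

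Normalized counts were log2-transformed after adding 1, and genes with at least 10 in at least 3 libraries were fitted in 1 model of 4 groups with limma 3.58.1 (R 4.3.3, trend), two-sided, with Benjamini-Hochberg adjustment over 11998 genes. Fold changes are on the log2(value + 1) scale and understate changes of low genes. Alternatives were a pseudocount of 0.5 or 10, other filters, rescaled libraries, quantile normalization, edgeR 4.0.16 and DESeq2 1.42.0 on whole reads, a fit of only the groups compared, a replicate block, and each library left out. The fit was tested on simulated data. Members and lists were chosen with earlier results of these data known. All 10 members are named, with their most similar gene, and from each further list the 2 genes with the smallest adjusted p in each comparison of the lines, plus genes singled out after their values were seen (Adam17, Eng, Alcam, genes set aside for the filter, and markers of other cells at 0 or 1 read). Motifs were chosen as common promoter elements.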

Additional observations from a re-analysis of the deposited data

How the results depend on the processing

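The log2 fold changes of the 10 markers in 5 comparisons gave 50 results, and 39 of them kept their direction and their side of the threshold under every alternative run. Of 895 values under an alternative, 862 did so, 13 lost the call, 4 gained it and 16 changed sign, all 16 for values that passed no test. The counts of changed markers between the lines were 6 or 7 without stimulation and 8 throughout after NE, and those for NE in vector cells and for the interaction were 5 and 0 throughout. For NE in tSema4B cells the count was 5, it was 4 with a pseudocount of 0.5, no filter on low values, libraries rescaled to the same total, TMM scaling, the replicate block or only the libraries compared, and it was 3 to 5 with each library left out.

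With libraries rescaled to the same total, the log2 fold change after NE changed sign for Thy1 in vector cells (-0.034) and for Zfp521 in tSema4B cells (0.003). The rescaling moved the median of all genes by -0.044 in vector and by 0.0244 in tSema4B cells, so these sign changes are not particular to these genes. With each library left out in turn, signs changed for Thy1 between the lines without stimulation (-0.253 to 0.019) and after NE (-0.032 to 0.242) and for NE in vector cells (-0.13 to 0.13), for Gata2 between the lines without stimulation (-0.28 to 0.25), for NE in tSema4B cells for Fap (-0.21 to 0.41) and Zfp521 (-0.28 to 0.30), and for the interaction of Pdgfrb (-0.10 to 0.15) and Ly6a (-0.014 to 0.36). The cause of the sign changes with a library left out was not tested. Pdgfra and Pdgfrb after NE, at 0.94 and 0.96, passed a log2 fold change of 1 when rescaled to the same total (1.04 and 1.06). In that comparison the rescaling moved the median of all genes by 0.0936.

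Replicate numbers did not pair the libraries. What was left after subtracting the group mean of each gene was correlated between libraries of different groups. Same-numbered libraries had correlations of -0.05 to 0.03 over 18 pairs, and differently numbered ones had -0.05 to 0.06 over 36 pairs. With the replicate block the counts between the lines were 6 without stimulation and 8 after NE, those for NE were 5 in vector and 4 in tSema4B cells, and the interaction had 0. Cd34 after NE in tSema4B cells lost its call (log2 fold change -0.38, adjusted p = 0.0553). The interaction has no separate fit on only the libraries compared, which are all 12, and Gata2 has no value with the filter at 50 normalized counts. Over all genes, the interaction had 3 higher and 0 lower calls, against 34 and 67 with DESeq2 on whole reads and 0 and 0 with no filter on low values, and NE in tSema4B cells had 441 higher and 309 lower calls, against 230 and 152 with only the libraries compared. With libraries rescaled to the same total, the balance of calls over all genes turned in 2 comparisons. For tSema4B against vector after NE it was 1651 higher and 1030 lower, against 1175 and 1342. For NE in vector cells it was 687 higher and 708 lower, against 818 and 574. Gata2 and Thy1 had the fewest reads, at 14 to 50 and 33 to 109 per library.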
